A study of Mus musculus with 7 samples.

Results

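The hair shaft keratins Krt31, Krt33a, Krt33b, Krt34, Krt35, Krt81, Krt83, Krt85 and Krt86 were followed in mouse dorsal skin across 2 diets and the time before and after a detergent treatment. A gene was included where an array probe that was not a control carried its symbol or an older synonym. Of the 9 genes listed, 8 had a probe, and all 8 passed the filter on dim probes, among 17112 genes in all; no probe was found for Krt81. The genes were chosen on measured values, namely the diet ratio on each array and the level in each group, so the values of these genes are a description and carry no test of their own.

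Every mouse was a male of HR-1, a hairless laboratory strain, aged 5 weeks and fed the AIN-93G diet either with or without glucosylceramide (GC), a sphingolipid made of ceramide and a glucose unit. The groups were GC-fed skin after sodium dodecyl sulfate (SDS, n = 4), control-fed skin after SDS (n = 4), GC-fed skin before SDS (n = 3) and control-fed skin before SDS (n = 3). After-SDS skin had 14 days of diet and 10% SDS for 5 minutes a day over 2 days, on the right side of the back, and before-SDS skin had 12 days of diet and no SDS. Each of 7 two-colour arrays held 1 GC-fed and 1 control-fed sample of the same SDS state. The labels call the replicates biological but do not say whether a sample was 1 animal or a pool.

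Hair keratins are the hard, sulphur-rich keratins of hair and nail. A type I (acidic) chain pairs with a type II (basic) chain to form the intermediate filaments of the hair shaft, which keratin-associated proteins then cross-link. In human follicles, KRT35 and KRT85 appear first, in the matrix and the lowest cortex, and KRT31, KRT33A, KRT33B, KRT34, KRT81, KRT83 and KRT86 follow higher up in the cortex. They are made during the growth phase of the hair cycle and are scarcely made in the epidermis between follicles, so in whole skin a lower level can mean fewer such cells or less RNA per cell, and these cannot be told apart here.

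In the RefSeq annotation the type I members lie in 1 cluster on chromosome 11, in the order Krt33a, Krt33b, Krt34, Krt31, Krt32, Krt35 and Krt36. Of the type II members, Krt81, Krt83 and Krt86 lie on chromosome 15. Krt85 was not among the genes of that stretch in the annotation, and its probe was named by the symbol in the scanner files alone. The probe treated as Krt83 carries an older symbol in the scanner files and is named Krt83 in the authors' deposited table; RefSeq now calls that transcript Krt87 and gives the symbol Krt83 to a neighbouring gene. Genes of this cluster are close copies of each other, and whether 1 probe also bound the RNA of another was not tested.

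Promoter sequences were found for only 3 members, Krt31, Krt33b and Krt34, in RefSeq's GRCm38.p6 table, and they are shown for that reason. Each runs over 300 bases on the minus strand, at chr11:100050502-100050801 for Krt31, chr11:100029819-100030118 for Krt33b and chr11:100041505-100041804 for Krt34. Capitals mark the promoter box TATAAA and the letters CTTTGA, the core of the site bound by TCF/LEF factors; both strands were searched, and the motifs do not overlap.
Krt31: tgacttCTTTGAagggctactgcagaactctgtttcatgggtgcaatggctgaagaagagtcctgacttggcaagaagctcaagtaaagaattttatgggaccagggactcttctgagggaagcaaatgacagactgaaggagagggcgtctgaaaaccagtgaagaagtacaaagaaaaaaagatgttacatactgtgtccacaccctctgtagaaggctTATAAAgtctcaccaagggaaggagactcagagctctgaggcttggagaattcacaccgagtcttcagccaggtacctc
Krt33b: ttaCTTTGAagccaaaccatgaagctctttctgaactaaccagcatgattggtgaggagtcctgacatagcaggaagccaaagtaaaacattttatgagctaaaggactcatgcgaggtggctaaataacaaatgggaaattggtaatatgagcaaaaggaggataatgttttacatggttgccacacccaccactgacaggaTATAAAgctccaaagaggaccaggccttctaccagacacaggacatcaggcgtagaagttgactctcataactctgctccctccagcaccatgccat
Krt34: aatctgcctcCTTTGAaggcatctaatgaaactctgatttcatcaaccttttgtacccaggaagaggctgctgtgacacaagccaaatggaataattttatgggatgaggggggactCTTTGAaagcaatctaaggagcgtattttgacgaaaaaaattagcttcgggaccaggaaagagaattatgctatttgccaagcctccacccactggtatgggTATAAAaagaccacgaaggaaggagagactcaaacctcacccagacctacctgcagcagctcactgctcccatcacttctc
Counted from the annotated start, TATAAA stood at -29 to -24 in Krt31, at -47 to -42 in Krt33b and at -31 to -26 in Krt34. CTTTGA stood near the far end of the window in each, at -244 to -239 in Krt31, -247 to -242 in Krt33b and -240 to -235 in Krt34, with a further copy at -133 to -128 in Krt34. Of 32851 promoters of the same length, 13.6% held TATAAA and 16.0% held CTTTGA. Aligned in pairs, the sequences were identical at 57.2% of positions for Krt31 and Krt33b, 56.9% for Krt31 and Krt34, and 51.2% for Krt33b and Krt34. A match of letters is no evidence that a factor binds there.

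Before the results, some arrays need to be set apart. Across all genes, the diet ratio on after-SDS array 4 correlated negatively with those of after-SDS arrays 1, 2 and 3 (r = -0.50, -0.62 and -0.30 across genes, which are not independent replicates), and before-SDS array 1 correlated at -0.40 with array 2 and -0.18 with array 3. The labels state the dye of every sample, so the direction they give was kept: the GC-fed sample carried Cy3 on before-SDS array 1 and after-SDS arrays 1 and 2, and Cy5 on the other 4. Non-control spots numbered 43379 per array, none saturated, with 48.5% to 54.5% well above background in green and 58.2% to 62.8% in red. All before-SDS arrays came from 1 slide and scan and all after-SDS arrays from another, so SDS and slide cannot be told apart. Nor can SDS be told apart from the time on the diet, which was 12 days before SDS and 14 days after SDS. Every member probe was well above background in 14 of 14 channels, and mean spot signals lay between 1286 and 13395 for Krt31 and between 8333 and 125181 for Krt33a.

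The 8 keratins were higher after SDS in both diets. Averaged over the 8 genes, the log2 level (normalized intensity) was 13.57 ± 0.32 in GC-fed skin after SDS, against 11.76 ± 0.51 in GC-fed skin before SDS (SD, n = 4 and 3). In control-fed skin it was 13.67 ± 0.41 after SDS, against 12.25 ± 0.97 before SDS (SD, n = 4 and 3). The 4 groups thus ran from control-fed after SDS and GC-fed after SDS, which lay within each other's spread, down to control-fed before SDS and GC-fed before SDS, which also lay within each other's spread. The sample means ranged over 13.30 to 14.00 in GC-fed and 13.28 to 14.23 in control-fed skin after SDS, and over 11.28 to 12.29 in GC-fed and 11.34 to 13.26 in control-fed skin before SDS. The value of 13.26 was control-fed replicate 2, which stood close to the lowest after-SDS samples.

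Among the type I genes, Krt35, whose human counterpart is an early matrix keratin, had log2 levels of 14.08, 14.42, 14.65 and 14.00 in GC-fed skin after SDS, against 12.60, 11.39 and 12.32 in GC-fed skin before SDS. In control-fed skin Krt35 had 14.88, 14.75, 13.99 and 14.45 after SDS, against 11.71, 13.62 and 12.41 before SDS. All samples after SDS were above all samples before SDS within each diet, with control-fed replicate 2 the nearest. The fitted difference was 2.15 ± 0.40 in GC-fed skin (log2, SE; 4.45-fold) and 1.97 ± 0.40 in control-fed skin (3.92-fold), the largest of the 8 genes in both.

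Krt33a, a type I cortex keratin, had log2 levels of 14.58, 15.43, 16.03 and 14.95 in GC-fed skin after SDS, against 13.97, 12.58 and 13.03 in GC-fed skin before SDS. In control-fed skin Krt33a had 16.19, 15.75, 14.61 and 14.87 after SDS, against 12.91, 14.96 and 13.46 before SDS. The GC-fed samples of the 2 states did not overlap, whereas control-fed replicate 2 before SDS lay above after-SDS replicates 3 and 4. The fitted difference was 2.06 ± 0.54 in GC-fed skin (log2, SE) and 1.57 ± 0.54 in control-fed skin.

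Krt31, also a type I cortex keratin, had log2 levels of 11.64, 12.00, 12.81 and 12.12 in GC-fed skin after SDS, against 10.79, 9.93 and 9.99 in GC-fed skin before SDS. In control-fed skin Krt31 had 13.09, 12.29, 11.67 and 11.78 after SDS, against 9.88, 11.78 and 10.62 before SDS. The GC-fed states were again apart, and the control-fed states overlapped, with before-SDS replicate 2 at 11.78 above after-SDS replicate 3 at 11.67. Krt34, another type I cortex keratin, had 13.76, 13.96, 14.74 and 13.86 in GC-fed skin after SDS, against 12.93, 11.99 and 12.15 in GC-fed skin before SDS, and the states did not overlap. In control-fed skin Krt34 had 14.90, 14.16, 13.47 and 13.62 after SDS, against 11.90, 13.92 and 12.61 before SDS, with an overlap through replicate 2 before SDS.

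Krt33b, the remaining type I gene, had log2 levels of 12.49, 13.27, 13.56 and 12.61 in GC-fed skin after SDS, against 11.69, 10.61 and 11.45 in GC-fed skin before SDS. In control-fed skin Krt33b had 13.58, 13.34, 12.81 and 13.06 after SDS, against 10.77, 12.41 and 11.57 before SDS. Neither diet showed an overlap between the states. The fitted differences were 1.71 ± 0.38 in GC-fed skin and 1.64 ± 0.38 in control-fed skin (log2, SE).

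Of the type II genes, Krt85, the partner of Krt35 in the early shaft, had log2 levels of 13.18, 13.06, 12.95 and 12.77 in GC-fed skin after SDS, against 11.55, 10.94 and 11.39 in GC-fed skin before SDS. In control-fed skin Krt85 had 13.37, 12.87, 12.98 and 13.17 after SDS, against 10.82, 12.60 and 11.67 before SDS. The states were apart in both diets. After SDS the spread between samples was narrow, with an SD of 0.18 in GC-fed and 0.22 in control-fed skin, and the fitted differences were 1.63 ± 0.27 and 1.47 ± 0.27 (log2, SE) in those diets.

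Krt83 and Krt86 are type II cortex keratins. Krt83 had log2 levels of 13.30, 13.36, 13.59 and 13.20 in GC-fed skin after SDS, against 12.42, 11.51 and 11.77 in GC-fed skin before SDS. In control-fed skin Krt83 had 13.86, 13.21, 13.34 and 13.38 after SDS, against 11.45, 13.42 and 12.42 before SDS. The states were apart in GC-fed skin and overlapped in control-fed skin through replicate 2 before SDS. Krt86 showed the same picture, with 13.39, 13.41, 13.63 and 13.28 in GC-fed skin after SDS, against 12.40, 11.29 and 11.63 in GC-fed skin before SDS. In control-fed skin Krt86 had 13.98, 13.24, 13.39 and 13.47 after SDS, against 11.30, 13.39 and 12.33 before SDS.

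**Figure D1:**
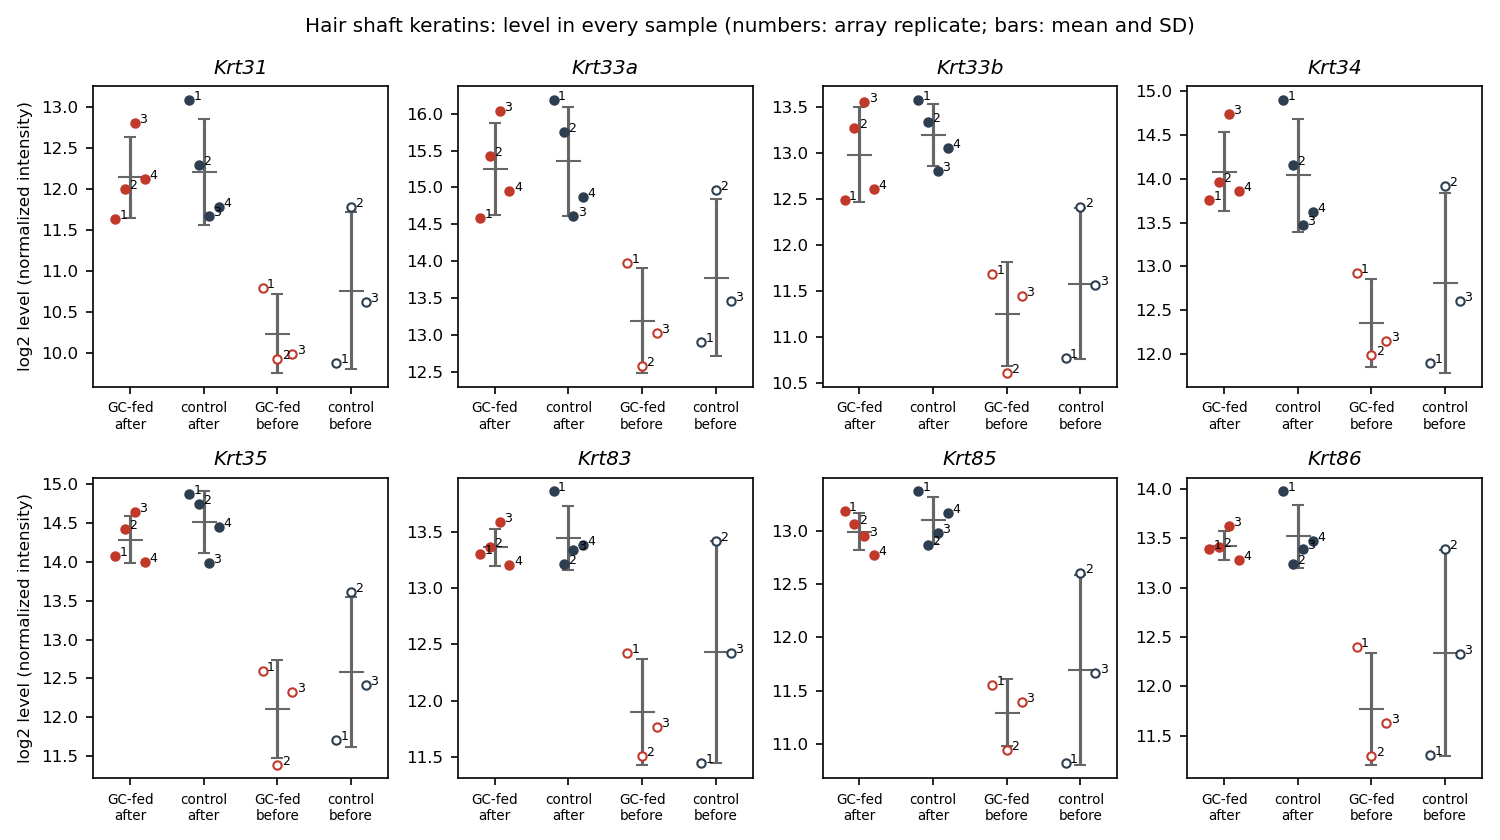
Log2 level (normalized intensity, y axis) of each hair shaft keratin in every sample, with GC-fed and control-fed skin after SDS (filled points) left of the same diets before SDS (open points); numbers give the array replicate and bars the mean and SD. After-SDS samples sit above before-SDS samples in GC-fed skin for all 8 genes, and control-fed replicate 2 before SDS (sample mean 13.26) is the highest before-SDS sample, just under the lowest after-SDS sample mean of 13.28.

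Over the 8 genes, the fitted difference after minus before SDS had a median of 1.72 on the log2 scale in GC-fed skin (1.40 to 2.15; 3.28-fold) and 1.45 in control-fed skin (1.08 to 1.97; 2.74-fold), against a median of 0 over all genes in each. In the limma fit across all genes with Benjamini-Hochberg adjustment at 0.05, 8 of 8 keratins were among the genes called higher after SDS in GC-fed skin, where the background was 6.14% of all genes, and 5 of 8 in control-fed skin, where it was 6.7%. The 5 were Krt33b, Krt35, Krt83, Krt85 and Krt86; Krt31, Krt33a and Krt34 did not pass in control-fed skin. Every after-SDS sample was above every before-SDS sample for 8 of 8 keratins in GC-fed skin (11.1% of all genes) and for 3 of 8 in control-fed skin (14.5%), which were Krt33b, Krt35 and Krt85. As the list was chosen with these levels known, nothing is read from these counts.

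These differences rested on few samples. Without before-SDS array 1 the control-fed median was 0.66 with 0 of 8 called, and without before-SDS array 2 it was 1.90 with 8 of 8 called. In GC-fed skin the calls went to 4 of 8 without before-SDS array 2 and to 2 of 8 without array 3 of either state. The count over all genes fell there too, from 2324 to 521 without before-SDS array 2. It was 630 without before-SDS array 3 and 904 without after-SDS array 3. In control-fed skin the count over all genes ran from 143 to 3641 as single arrays were left out. With no normalization between arrays the median of all genes moved to -0.26 in both diets and 0 genes were called, while the keratins stood 1.71 above it in GC-fed skin and 1.41 above it in control-fed skin.

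**Figure D2:**
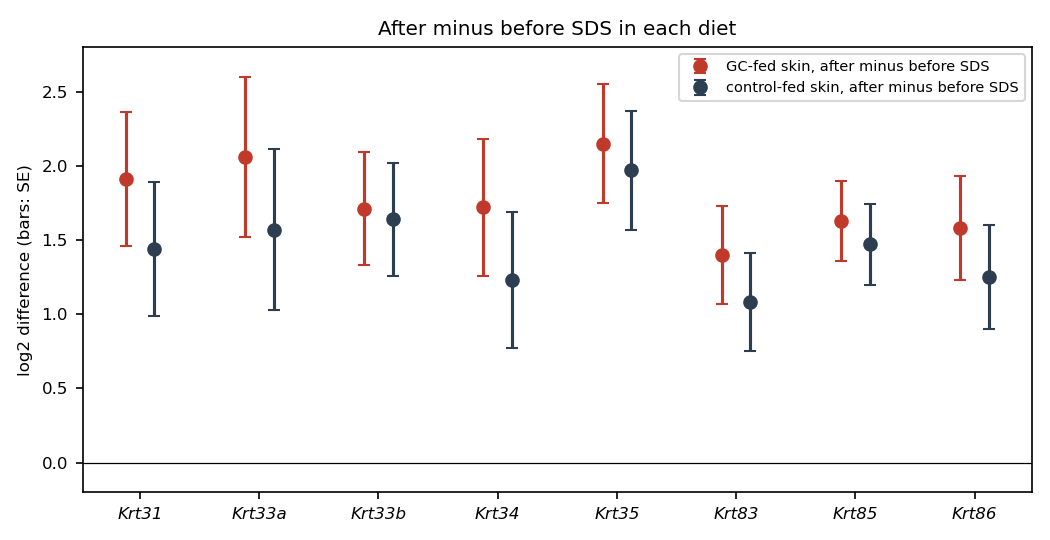
Fitted log2 difference, after minus before SDS (y axis), for each hair shaft keratin in GC-fed skin (red, left of each pair) and control-fed skin (dark, right of each pair), with SE bars. All differences are above 0, from 1.40 to 2.15 in GC-fed and from 1.08 to 1.97 in control-fed skin.

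The question of the diet itself was whether GC-fed skin differed from control-fed skin on the same array. For the hair shaft keratins the sign of that difference changed from array to array. Before SDS, the median log2 ratio of the 8 genes, GC-fed over control-fed, was 0.94 on array 1, -1.92 on array 2 and -0.44 on array 3. All 8 genes were higher in GC-fed skin on array 1, and none was on arrays 2 and 3. After SDS the medians were -0.95, -0.13, 0.71 and -0.19 on arrays 1 to 4, and 0, 3, 7 and 3 of the 8 keratins were the higher ones in GC-fed skin.

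Set among all genes on the same array, the median of the keratins stood at percentile 99.8, 0.2 and 1.9 on before-SDS arrays 1, 2 and 3. After SDS it stood at percentile 1, 32.2, 97.4 and 17.2 on arrays 1 to 4. The keratins were thus near an end of the ratios of all genes on 5 of 7 arrays.

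Single genes followed the same course. Krt33a, with the widest swing, had log2 ratios of 1.06, -2.38 and -0.43 before SDS and -1.61, -0.32, 1.43 and 0.08 after SDS. Krt85, with the narrowest, had 0.73, -1.67 and -0.28 before SDS and -0.19, 0.19, -0.03 and -0.40 after SDS. The arrays before SDS thus moved both genes in the same order, and after SDS Krt85 stayed within 0.40 of 0 while Krt33a did not. Krt31 had ratios of 0.91, -1.85 and -0.63 before SDS and -1.45, -0.29, 1.14 and 0.34 after SDS. Krt35 had 0.89, -2.23 and -0.10 before SDS and -0.80, -0.32, 0.67 and -0.45 after SDS. Krt86 had 1.10, -2.09 and -0.70 before SDS and -0.59, 0.18, 0.24 and -0.19 after SDS, so its after-SDS ratios were small beside those of Krt31.

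**Figure D3:**
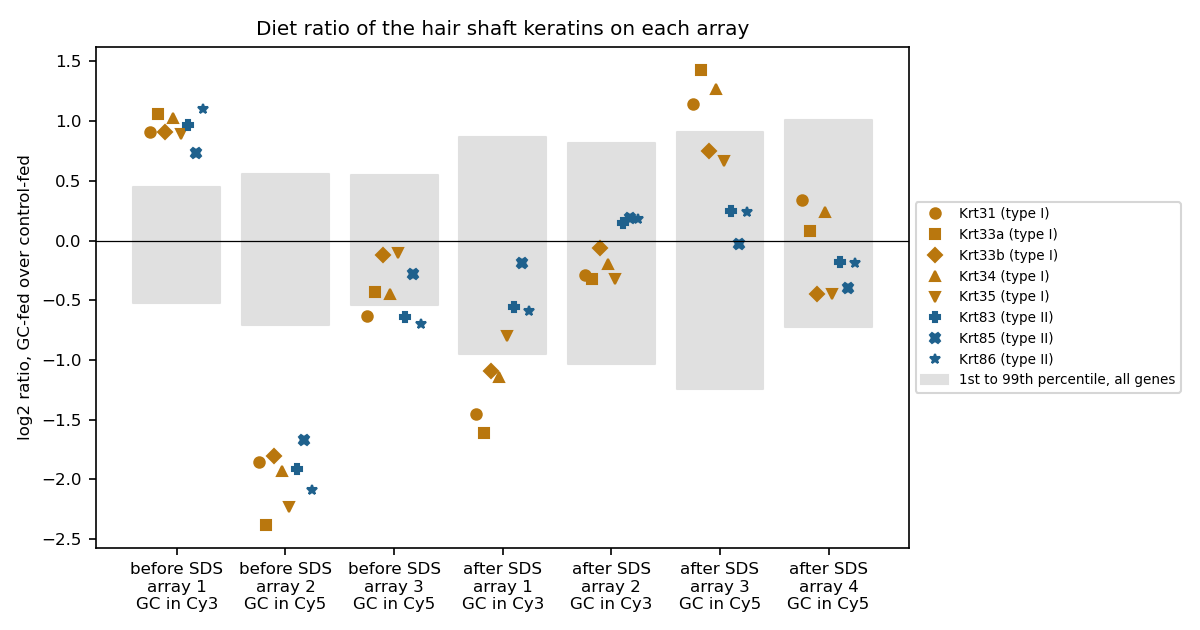
Log2 diet ratio, GC-fed over control-fed (y axis), for each hair shaft keratin on each of the 7 arrays (x axis, with the dye of the GC-fed sample); orange marks type I genes, blue marks type II genes and grey boxes span the range of all genes without the outermost percentile at each end. The 8 genes lie together at about 0.94 on before-SDS array 1 and -1.92 on array 2, and separate by type on after-SDS arrays 1 to 3 but not on array 4.

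In the fit over all arrays the diet difference of the 8 genes had a median of -0.41 before SDS (-0.59 to -0.27), -0.10 after SDS (-0.23 to 0.04) and 0.32 for the after-SDS minus the before-SDS difference (0.07 to 0.49). Standard errors were as large as the estimates or larger: Krt33a was -0.59 ± 0.75 before SDS and -0.11 ± 0.63 after SDS, and Krt85 was -0.27 ± 0.33 and -0.11 ± 0.28 (log2, SE). GC-fed and control-fed samples overlapped for 8 of 8 genes in either state. The share of all genes with such an overlap was not counted, so nothing is read from this count. None of the 8 was called, where the background was 0% of 17112 genes in each of the 3 diet comparisons (limma, Benjamini-Hochberg, 0 genes); 68 genes before SDS, 761 after SDS and 208 for the difference had an unadjusted p under 0.05. The median before SDS was -1.51 without array 1 and 0.26 without array 2, and the median after SDS was 0.28 without array 1, -0.51 without array 3 and -0.19 without array 4.

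Dye moved with the before-SDS ratios. On all 3 before-SDS arrays each of the 8 genes was brighter in the green channel than in the red (16% of all genes did so), with median log2 red over green of -0.94, -1.92 and -0.44; green held the GC-fed sample on array 1 and the control-fed sample on arrays 2 and 3. After SDS the medians were 0.95, 0.13, 0.71 and -0.19. The fitted dye term (log2 red over green) was -0.38 for Krt83, -0.41 for Krt85 and -0.43 for Krt86, and between -0.21 and 0.05 for the 5 type I genes, against a median of 0.02 over all genes. Its part in the ratios before SDS was not tested.

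The genes varied together. Over the 28 pairs, log2 levels correlated at r = 0.90 to 1.00 over the 14 samples, and diet ratios at r = 0.70 to 1.00 over the 7 arrays; samples share arrays, normalization and SDS state, so these are descriptions. Krt31, Krt33a and Krt34 formed a close group (ratios r = 0.99 to 1.00), Krt33b and Krt35 another (0.98), and Krt83, Krt85 and Krt86 a further one (0.96 to 1.00). The weakest pair was Krt33a and Krt85 for levels (r = 0.90) and Krt31 and Krt85 for ratios (r = 0.70). Krt83 and Krt86 differed by at most 0.18 in ratio on any array.

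The division by keratin type showed after SDS. There the median ratio of the 5 type I genes minus that of the 3 type II genes was -0.58, -0.47, 0.90 and 0.27 on arrays 1 to 4, against -0.06, -0.02 and 0.21 on the before-SDS arrays. The sign was negative on both arrays where Cy3 labelled the GC-fed sample and positive on both where Cy5 did. In red over green, the type I median was thus the higher on each after-SDS array. The fitted dye term was also split by type, from -0.43 to -0.38 for type II genes and from -0.21 to 0.05 for type I genes. The part of dye in this division was not tested. The genes of the 2 types did not overlap in ratio on after-SDS arrays 1 to 3, whereas on array 4 the type II genes (-0.40 to -0.18) lay within the type I range (-0.45 to 0.34). In levels, type II genes were the more even after SDS: SDs were 0.14 to 0.18 in GC-fed and 0.22 to 0.32 in control-fed skin, against 0.31 to 0.63 in GC-fed and 0.34 to 0.74 in control-fed skin for type I genes (n = 4 each).

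A further probe of Krt33b gave ratios nearer to 0 on every array but after-SDS array 2. It gave 0.48, -1.18 and 0.00 before SDS and -0.35, -0.18, 0.16 and -0.39 after SDS, whereas the brighter probe gave 0.91, -1.80 and -0.12 before SDS and -1.09, -0.06, 0.75 and -0.45 after SDS.

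Some lists had median ratios with the sign of the hair shaft keratins on every before-SDS array and on after-SDS arrays 1 and 3. They were the inner root sheath, keratin-associated proteins, other hair keratins and proteins linked to the shaft. Of each list, genes that passed the filter are counted. The inner root sheath, the layer that moulds the growing shaft, had median log2 diet ratios of 1.32, -2.52 and -0.29 before SDS and -0.63, 0.29, 1.26 and -0.04 after SDS over 8 genes. Keratin-associated proteins, which cross-link the hair keratin filaments, had 0.68, -1.81 and -0.41 before SDS and -1.04, 0.01, 1.12 and 0.02 after SDS over 39 genes. The hair keratins outside the list (Krt32, Krt36, Krt82 and Krt84) had 0.28, -1.29 and -0.10 before SDS and -0.19, -0.07, 0.67 and -0.48 after SDS. In each of these the sign on before-SDS arrays 1 and 2 was that of the hair shaft keratins; on after-SDS array 2, 8 of 8 inner root sheath genes were higher in GC-fed skin, against 3 of 8 hair shaft keratins. The companion layer and outer root sheath list had medians of 0.27, -0.37 and 0.17 before SDS and -0.16, 0.22, 0.88 and 0.17 after SDS over 7 genes. Follicle transcription factors and signals had 0.09, -0.28 and 0.03 before SDS and -0.01, 0.02, 0.49 and -0.12 after SDS over 22 genes, and proteins linked to the shaft had 0.12, -0.98 and -0.27 before SDS and -0.24, 0.13, 0.94 and -0.01 after SDS over 9 genes.

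Single genes differed in the size of the swing. Krt71 of the inner root sheath had ratios of 1.39 on before-SDS array 1 and -2.77 on array 2. Trichohyalin (Tchh), which the inner root sheath uses to bind its keratin filaments, had 1.56 and -2.83 on those arrays. Tgm3, a transglutaminase on the inner root sheath list, was at -0.01 and 0.06; it is named after its values were seen. Krtap5-1 had 1.08 and -2.36, Krtap6-3 had 0.81 and -1.31, and Krtap4-6 had 0.19 and -0.59. Krt32, a type I keratin of the shaft cuticle, had 0.58 and -1.76, Krt36 had 0.12 and -1.18, and Krt82 had 0.36 and -1.39. Krt25 of the inner root sheath had 1.34 and -2.56. Krt17 of the outer root sheath stayed at 0.05 and -0.16, and Krt15, a keratin of basal and stem cells, was at -0.33 and 0.48.

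After SDS, 3 of 8 inner root sheath genes, 27 of 39 keratin-associated proteins and 4 of 4 other hair keratins were called higher in GC-fed skin, where 6.14% of all genes were. In control-fed skin, with 6.7% of all genes called higher, these counts were 0 of 8, 5 of 39 and 3 of 4. Named after their values were seen, the inner root sheath genes were Krt25, Krt28 and Padi3, at 1.59, 1.73 and 1.66 in GC-fed skin. The keratin-associated proteins called in control-fed skin were Krtap12-1, Krtap13-1, Krtap2-4, Krtap5-4 and Krtap8-1, at 1.34 to 1.42, and of the other hair keratins only Krt84 was not called there, at 0.25. Krtap4-6 and Krtap6-3 passed in neither diet, at 0.34 and 1.36 in GC-fed and 0.05 and 1.11 in control-fed skin. The median log2 differences were 1.39, 1.71 and 1.15 in GC-fed skin and 0.82, 1.13 and 0.92 in control-fed skin, against 1.72 and 1.45 for the hair shaft keratins in those diets. Whether the diets differed in these changes between the states is the test of the diet difference after minus before SDS, which called 0 genes.

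The follicle's transcription factors and signals were called higher after SDS for 7 of 22 genes in GC-fed skin and for 6 of 22 in control-fed skin, with 1 and 0 called lower. Over all genes, 6.14% and 6.7% were called higher in those diets, and 1276 and 1440 of 17065 genes were called lower. Those higher in GC-fed skin were Hoxc13, Foxn1, Msx2, Lef1, Shh, Fgf5 and Dsg4, and those in control-fed skin were Hoxc13, Foxn1, Msx2, Lef1, Wnt5a and Dsg4; they are named here after their values were seen. Hoxc13 and Foxn1, factors needed for hair keratin expression, differed by 0.70 ± 0.14 (adjusted p = 0.0107) and 0.70 ± 0.14 (adjusted p = 0.0107) in GC-fed skin in the limma fit. In control-fed skin Hoxc13 differed by 0.53 ± 0.14 (adjusted p = 0.0265) and Foxn1 by 0.48 ± 0.14 (adjusted p = 0.0415) in the same fit. Lef1, a factor of the TCF/LEF family that acts in the hair matrix, differed by 1.55 ± 0.36 in GC-fed skin and 1.26 ± 0.36 in control-fed skin (limma adjusted p = 0.0173 and 0.0341; log2, SE). Bmp4, a signal of the dermal papilla, was the gene called lower in GC-fed skin, at -0.33 ± 0.08 (limma adjusted p = 0.0239). Vdr, Gata3 and Wnt10a, the brightest of the list, did not pass in either diet, with differences of -0.01, 0.47 and 0.05 in GC-fed skin and -0.31, 0.35 and -0.21 in control-fed skin.

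Proteins linked to the shaft were called higher after SDS for 4 of 9 genes in GC-fed skin and for 1 of 9 in control-fed skin. The shares of all genes called higher were 6.14% and 6.7% in those diets. The 4 were S100a3, Crisp1, Padi1 and Psors1c2, at 1.75, 1.37, 1.13 and 1.18, of which S100a3 was also the 1 called in control-fed skin. S100a3, a calcium-binding protein of the hair cuticle, differed by 1.75 ± 0.38 in GC-fed skin and 1.52 ± 0.38 in control-fed skin (log2, SE; limma adjusted p = 0.0135 and 0.0204). Lce1m and Selenbp1 did not pass in either diet, with differences of -0.38 and 0.12 in GC-fed skin and -0.80 and 0.32 in control-fed skin. Proliferation genes were called higher for 6 of 10 in GC-fed and 4 of 10 in control-fed skin, beside the same shares of all genes, with medians of 0.49 and 0.33. Birc5, a survival protein of dividing cells, differed by 0.84 ± 0.15 and 0.71 ± 0.15 in those diets (limma adjusted p = 0.00749 and 0.0111), and Pcna, the sliding clamp of DNA replication, by 0.15 and 0.13 without passing. Mki67, a marker of cycling cells, passed in GC-fed skin at 0.71 ± 0.19 (limma adjusted p = 0.0317) and was at 0.36 in control-fed skin without passing.

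Of the melanocyte markers, 2 of 7 were called higher after SDS in GC-fed and 3 of 7 in control-fed skin. Among all genes, 6.14% and 6.7% were called higher in those diets, and 1276 and 1440 of 17065 were called lower. Pigment cells of the follicle work during hair growth. Dct and Slc45a2 were called in both diets and Tyrp1 in control-fed skin, at 0.85. Dct, an enzyme of melanin synthesis, differed by 1.25 ± 0.35 in GC-fed and 1.58 ± 0.35 in control-fed skin (limma adjusted p = 0.035 and 0.0126). Pmel and Mlana did not pass, at 0.83 and 0.03 in GC-fed and 0.86 and -0.07 in control-fed skin. The outer root sheath and companion layer list had 0 of 7 genes called higher in either diet and 0 and 1 called lower in GC-fed and control-fed skin; the gene called lower in control-fed skin was Krt15, at -0.56 ± 0.14 (limma adjusted p = 0.0227). Krt75, a companion layer keratin, was at 0.89 in GC-fed and 0.36 in control-fed skin and Krt17 at 0.19 and -0.02, without passing.

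Markers of tissue outside the follicle gave these values beside the keratins. Among all genes, 6.14% in GC-fed and 6.7% in control-fed skin were called higher, and 1276 and 1440 of 17065 were called lower. Nothing is read from single calls in these short lists. Epidermal keratins had 0 of 4 genes called higher in either diet and Krt2, a keratin of the upper epidermis, called lower in control-fed skin (-1.98), with list means of 14.86 to 15.54 in GC-fed and 14.29 to 15.22 in control-fed skin after SDS, against 15.42 to 15.55 and 14.95 to 15.42 in those diets before SDS. Of them, Krt5, Krt14, Krt1 and Krt2 correlated with the mean hair keratin level at r = -0.04, -0.42, -0.26 and -0.58 over the 14 samples. Sebaceous gland markers had 1 of 8 called higher and 1 lower in GC-fed skin, and 0 and 1 in control-fed skin, which were Fads2 (0.58 in GC-fed skin) and Awat2 (-0.54 in GC-fed and -0.69 in control-fed skin). Of the brightest, Fasn, Plin2 and Scd1, enzymes and a coat protein of lipid storage, were at -0.22, -0.16 and -0.24 in GC-fed and 0.29, -0.13 and 0.26 in control-fed skin, without passing. Adipocyte and muscle lists had 0 of 10 called in GC-fed skin and 3 and 2 of 10 called higher in control-fed skin, which were Adipoq, Lep and Plin1 (0.62, 0.85 and 0.44) and Pvalb and Actn3 (1.11 and 2.03). The macrophage list had 0 of 10 called in either diet.

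On single arrays, the medians of the macrophage and muscle lists were opposite in sign to the keratins on before-SDS array 1 and after-SDS array 3. Both lists had the sign of the keratins on before-SDS array 2 and after-SDS arrays 1 and 2. Macrophage markers had median diet ratios of -0.11, -0.26 and -0.39 before SDS and -0.88, -0.73, -1.23 and 0.67 after SDS, so after-SDS array 4 alone was positive. Lyz2, a macrophage and neutrophil lysozyme, had -2.24, -2.36, -1.72 and 2.24 after SDS, and C1qa and C1qc, complement subunits, had 0.28 and 0.33 on array 4. Muscle markers had -0.78, -0.25 and 0.14 before SDS and -1.24, -0.40, -1.49 and -0.21 after SDS; Tnni2, Acta1 and Myh1, proteins of the contractile fibre, had -0.90, -1.09 and -0.81 on before-SDS array 1. Adipocyte markers had -0.03, 0.18 and -0.23 before SDS and -0.23, -0.39, -0.80 and -0.28 after SDS, with Cfd, Fabp4 and Car3 at -0.56, -0.88 and -0.14 on before-SDS array 1. The part of tissue composition in the keratin ratios was not tested.

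**Figure D4:**
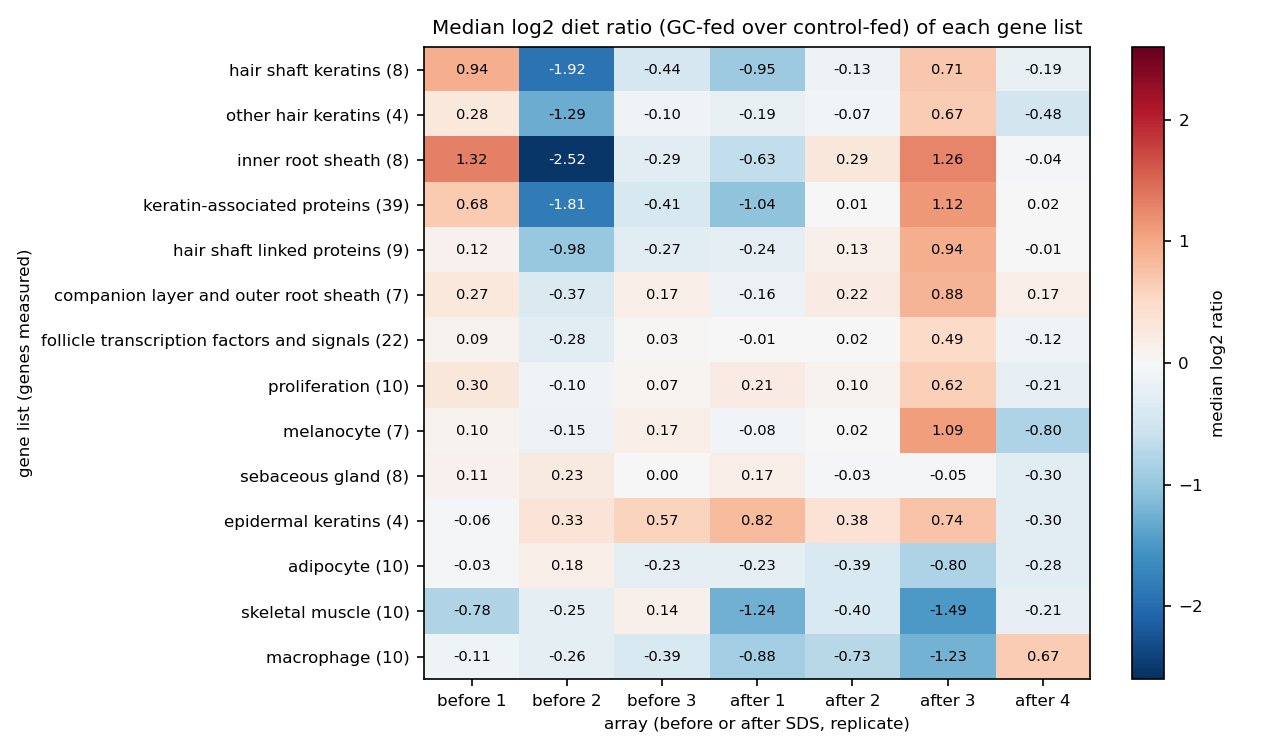
Median log2 diet ratio, GC-fed over control-fed (colour and printed value), for each gene list (rows, with the number of genes measured) on each array (columns). The hair shaft keratins, inner root sheath and keratin-associated protein rows run from positive on before-SDS array 1 (0.94, 1.32 and 0.68) to strongly negative on array 2 (-1.92, -2.52 and -1.81), while the macrophage row turns positive on after-SDS array 4 (0.67).

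The 10 genes whose level was most like the mean level of the keratins over the 14 samples were S100a3, Krtap8-1, Ly6g6d, Sct, Krtap13-1, Gprc5d, Krtap5-4, Krt32, Krtap3-1 and Cyp2s1, with Pearson r between 0.979 and 0.990. Their diet ratios correlated with the mean ratio of the keratins at r = 0.96 to 0.99 over the 7 arrays. Over all 17065 genes of the comparison of levels the median r was -0.02, with 58 genes, members included, over 0.95. Ly6g6d had ratios of 0.68, -1.66 and -0.20 before SDS and -1.01, -0.01, 1.02 and -0.28 after SDS. Sct, the gene of the hormone secretin, had 0.59, -2.10 and -0.24 before SDS and -1.01, -0.03, 1.30 and -0.35 after SDS. Gprc5d, an orphan receptor, had 0.75, -1.85 and -0.24 before SDS and -0.90, 0.08, 0.75 and 0.26 after SDS. Cyp2s1, a cytochrome P450, had smaller ratios, between -1 and 0.40 before SDS and between -0.30 and 0.75 after SDS.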

How the data were processed

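RNA of 14 skin samples was measured on 7 two-colour Agilent arrays. Per the file headers, the deposited scanner files hold spot intensity (mean signal and median local background) for both dyes, from Agilent Feature Extraction (version 9.1.3.1). The authors also deposited a gene-level table of log2 ratios, used as an alternative and for the names of 2 probes; its values showed that the sign was turned where Cy3 labelled the GC-fed sample, and it correlated with the scanner ratios at r = 0.867 to 0.965 over 9829 genes.

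Signals were corrected with limma 3.58.1 (R 4.3.3, normexp, offset 50) and normalized by loess within arrays. Control spots and outlier spots were left out. A probe was kept if 3 or more of 14 channels were well above background (25177 of 41174), and the brightest probe of each gene was used. Diet effects came from 1 fit to the log2 ratios of 7 arrays with a dye term. Differences after minus before SDS came from a separate-channel fit (Aquantile between arrays, intraspot correlation -0.007) over 17065 genes without a missing spot. Benjamini-Hochberg adjusted p-values were called at 0.05; they reflect only the spread of these samples, which may be technical, and the number of arrays limits the precision. The fits were tested on simulated data with independent noise and effects larger than those of the keratins. The separate-channel fit was run there with no normalization between arrays. Those runs do not show how well effects of the size reported here are found. Alternatives were the processed signals, median centring, no dim-probe filter, the mean of probes, no dye term, the deposited ratios, no between-array normalization, each array left out and a replicate block. Every hair shaft keratin is named; of each other list the 3 brightest genes are named, and likeness took the 10 genes of highest r. The members and lists were chosen with earlier results of these data known.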

Additional observations from a re-analysis of the deposited data

How the results depend on the processing

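The 8 keratins kept a positive difference after minus before SDS in both diets under every alternative run. The count of genes called was less steady. In GC-fed skin, 1335 genes were called with the processed signals, 1193 with median centring, 1143 with the mean of a gene's probes and 0 with no normalization between arrays, against 2324 as reported. In control-fed skin, 1172 were called with median centring, 1268 with the mean of probes and 0 with no normalization between arrays, against 2583. Of the 8 keratins, 0 were called in either diet with no normalization between arrays, and 3 were called in control-fed skin with median centring, with no filter on dim probes and with the mean of probes. With the replicate number as a block (replicate block, replicates 1 to 3), 3 of 8 keratins were called in each diet. Over the same replicates with no block, a setting added after seeing the data, 7 were called in GC-fed and 4 in control-fed skin. Over all genes, 1841 were called in GC-fed skin with the block and 2697 without it. For a check of pairing, the level of each gene was taken as its deviation from the mean of the diet and SDS group. These deviations correlated between before-SDS and after-SDS samples of the same number at -0.19 to 0.09 in GC-fed skin. In control-fed skin the correlations were -0.13 to 0.29, so the numbers were not taken to pair the samples. Causes were not tested.

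Leaving out 1 array at a time gave 521 to 2697 genes called, 2 to 8 keratins called and a median of 1.46 to 2.26 for SDS in GC-fed skin, and 143 to 3641 genes, 0 to 8 keratins and a median of 0.66 to 1.90 in control-fed skin; before-SDS replicate 1 gave the lowest values in control-fed skin. For diet, 0 genes were called before SDS in each case, with a median of -1.51 to 0.26 for the keratins. After SDS, 0 to 928 genes were called, the 928 without array 4, with a median of -0.51 to 0.28. For the difference, 0 to 56 were called, the 56 also without array 4, with a median of -0.31 to 1.37. Of the values of single keratins, 554 shifted by less than the SD between replicates and 5 by more, as array 1 of either state was left out. That SD was wide, so changes of sign were among the 554. The diet effect of Krt33a before SDS, at -0.59, was -2.27 without before-SDS array 1 and 0.31 without array 2, and both counted as unmoved. Of the counts of genes and keratins called and the keratin medians, 137 stayed and 31 moved, with counts allowed to differ 1.5-fold. All probes of these genes were well above background in every channel, and whether signal strength affected their ratios was not tested.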
